A study of Mus musculus with 8 samples.

Results

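The constitutive proteasome genes of mouse microglia were examined here in RNA-sequencing libraries from cells exposed to bacterial lipopolysaccharide (LPS) or left unstimulated. The genes were chosen by name: every protein-coding gene of the GENCODE vM21 annotation whose symbol is Psm, a letter from a to g and a number, without the immunoproteasome genes Psmb8, Psmb9 and Psmb10. The rule gave 45 genes of the 52636 identifiers in the count table. No expression value entered the rule, but the group was chosen with earlier results of these data known. The cells were primary microglia, the brain's resident macrophages, of wild-type (WT) mice labelled C57BL/6 (the study's methods name C57BL/6N pups), shaken off mixed glial cultures of neonatal brains. All of them were kept in medium with 10% fetal bovine serum and 10 ng/ml of the growth factor CSF-1. LPS cells received 5 µg/ml LPS for 24 h and Vehicle cells received the solvent for 24 h, with 4 libraries in each group labelled as biological replicates 1 to 4. The labels do not say whether replicates came from separate cultures or litters, so p-values measure the spread between these libraries. The age and sex of the animals are not given in the labels.

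The proteasome is the main protease of the cytosol and nucleus and degrades proteins tagged with ubiquitin. Its 20S core is a barrel of rings of alpha subunits, which gate the entrance, around rings of beta subunits, of which Psmb5, Psmb6 and Psmb7 carry the active sites. The 19S particle caps the barrel, with a base of ATPases that unfold substrates and a lid that removes ubiquitin. Other caps, such as the PA28 activators, open the gate without ATP. In cells stimulated by interferon or microbial products, the inducible subunits Psmb8, Psmb9 and Psmb10 can take the places of Psmb5, Psmb6 and Psmb7, which alters the peptides made for antigen presentation.

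The libraries held 20071921 to 30604447 counts, and the 45 genes took 0.289% to 0.301% of them in Vehicle and 0.343% to 0.377% in LPS libraries. Levels are given as CPM, counts scaled to a common total, from the library size after TMM scaling, which sets the bulk of genes level between libraries. The TMM factors separated the groups, at 1.21 to 1.32 in Vehicle and 0.701 to 0.833 in LPS libraries. The 100 most abundant genes held 27.1% to 29.3% of Vehicle and 34.97% to 37.05% of LPS counts. The median gene moved by -0.11 on the log2 scale with TMM and by -0.79 with library totals alone, and changes below are relative to the other genes. In bulk RNA, fewer cells and less RNA per cell cannot be told apart. All 10 microglial markers examined were detected and summed to 9473 to 10808 CPM in Vehicle and 2380 to 2637 CPM in LPS libraries, with 8 of 10 lower after LPS. Summed markers of other cells were far smaller, and several moved with treatment. The 8 astrocyte markers summed to 20.01 to 46.9 CPM in Vehicle and 41.01 to 123 CPM in LPS libraries, although 1 of the 7 tested was higher and 3 were lower. The 5 endothelial markers went from 31.05 to 73.5 CPM to 163 to 254 CPM (3 of 3 tested higher). Of these markers, Cldn5 was at 0 and Tek at or under 3 counts throughout. The 5 oligodendrocyte markers went from 79.3 to 114 CPM to 18.3 to 23.04 CPM (1 of 3 tested lower), with Mobp at 0. The 5 OPC markers went from sums of 14.8 to 50.7 CPM to 0.466 to 7.24 CPM (3 of 4 tested lower), and the 4 neuron markers from 5.84 to 16.3 CPM to 0.700 to 4.61 CPM (3 of 3 lower). The 5 fibroblast markers went from 0.497 to 3.52 CPM to 5.30 to 21.3 CPM (1 of 2 tested higher). The part of these shifts in the proteasome values was not tested.

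After LPS the proteasome genes moved upward as a group. Of the 45 genes, 44 had enough counts to test, 36 were higher after LPS, 3 were lower and 5 did not pass an adjusted p of 0.05. Across all 13847 genes tested by edgeR, 30.3% were higher and 33.8% lower by the same rule. In 36 genes all 4 LPS libraries lay above all 4 Vehicle libraries (28.7% of all genes tested). In 3 all lay below (31.5% of all genes), and in 5 the groups overlapped. Psma8, counted among the lower genes in both tallies, passed the filter on low counts only through Vehicle, so its fall is a description. The median log2 fold change of the 44 was 0.89, against -0.11 over all genes tested, and 15 of them exceeded 1 (16.1% of all genes tested). The rise depended on the scaling for some genes. With library totals alone, 18 were higher and 9 lower, the median log2 fold change was 0.21, and 14.4% and 61.1% of all genes passed upward and downward. Measured from the median gene, the members stood 1.00 higher under either scaling, and 40 of the 44 lay above the median gene in both. The change of scaling shifts all genes by a near-constant amount, so this likeness holds by construction and is no separate check.

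**Figure D1:**
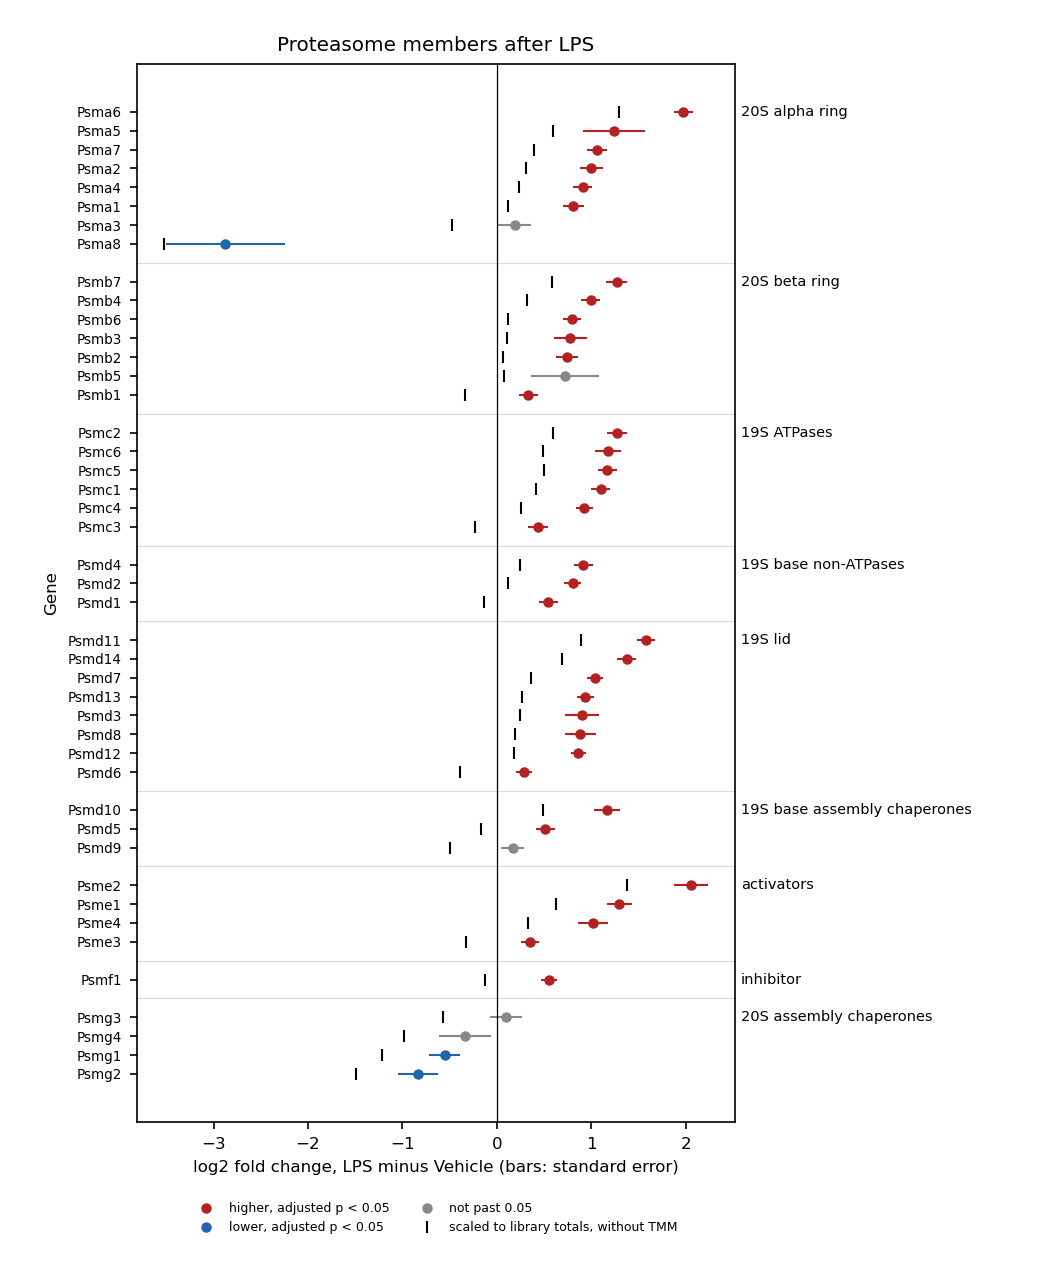
Log2 fold change (LPS minus Vehicle, x axis) of each of the 44 tested genes with its standard error, grouped by role; ticks mark the value with library totals alone. The points of 36 genes lie to the right of 0 and pass the test, while the 20S assembly chaperones sit around or below 0.

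The genes outside the rise were of 2 kinds. Psma8, Psmg1 and Psmg2 were lower after LPS, and Psma3, Psmb5, Psmd9, Psmg3 and Psmg4 did not pass the test. Psmb11, the thymus-specific catalytic subunit, had 0 counts in all 8 libraries, where 3 counts would amount to 0.0952 to 0.180 CPM. Psma8 is the alpha subunit of the testis proteasome, had 41, 26, 56 and 34 counts in Vehicle replicates 1 to 4 and 7, 0, 2 and 4 counts in LPS replicates 1 to 4, and passed the filter on low counts only through Vehicle, so its fall (log2 fold change -2.88, edgeR adjusted p = 0.00279) is given as a description.

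Many proteasome genes have near-identical retrocopies elsewhere in the genome, and the authors kept only uniquely aligned reads. Each gene's longest coding transcript was therefore cut into windows of 50 bases, the read length, and aligned to all transcripts of the annotation. In 12 of the genes at least 30% of windows matched another gene within 2 mismatches. Psmb5 was at the top with 88.1%, followed by Psme2 with 82.04%, Psmb3 with 80.2%, Psma5 with 74.7% and Psmd2 with 73.1%. Psmc1 (68.5%), Psma4 (64.2%), Psmd11 (47.4%), Psmb6 (35.4%), Psmb7 (31.4%), Psma3 (30.3%) and Psme1 (30.1%) made up the rest. The most frequent match of Psmb7 was Nek6, which overlaps it on the other strand, so those windows are not a copy elsewhere. The windows below show how close the copies are. Each is 60 bases of the gene's coding sequence from GENCODE vM21 (GRCm38) beside the copy, in lower case, with differing bases in capitals.
Psma5: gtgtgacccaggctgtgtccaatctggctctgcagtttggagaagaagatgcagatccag
Gm8394, pseudogene, chr10:85313900-85313959, plus strand: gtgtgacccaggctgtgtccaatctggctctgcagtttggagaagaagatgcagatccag
Psmb3: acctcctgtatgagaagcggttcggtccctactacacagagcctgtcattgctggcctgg
AC114990.1, pseudogene, chr16:21896783-21896842, plus strand: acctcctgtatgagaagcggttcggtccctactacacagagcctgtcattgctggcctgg
Psmb5: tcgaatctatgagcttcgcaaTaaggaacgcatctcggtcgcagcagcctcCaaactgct
Gm3375, pseudogene, chr7:3181459-3181518, plus strand: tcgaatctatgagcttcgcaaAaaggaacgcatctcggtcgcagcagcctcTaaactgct
Psme2: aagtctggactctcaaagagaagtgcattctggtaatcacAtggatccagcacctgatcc
Psme2b, protein-coding, chr11:48945731-48945790, minus strand: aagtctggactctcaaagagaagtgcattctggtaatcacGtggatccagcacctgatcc

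The Psma5 and Psmb3 windows had 0 differences from their copies, the Psmb5 window had 2 and the Psme2 window had 1. A read from such a stretch of Psma5 or Psmb3 aligns in both places and drops out of a table of uniquely aligned reads. Psma5, Psmb3, Psmb5 and Psma3 were also the least abundant of the 14 standard core genes per length, at 1.56, 1.57, 2.17 and 1.51 CPM per kilobase of exon in Vehicle libraries, against 48.3 for Psmb6. Psmd2 and Psme1, also among the 12, stood at 37.7 and 41.7 CPM per kilobase. The part of shared sequence in these levels was not tested. The copies themselves were counted. Gm8394 moved from 4.19 ± 1.17 to 10.9 ± 1.53 CPM (SD, n = 4) and Gm3375 from 2.17 ± 0.583 to 3.79 ± 1.17 CPM. Since only uniquely aligned reads were kept, stretches identical in a gene and its copy add to neither count. Whether reads from nearly identical stretches were placed in the right gene was not tested. Without the 12 genes, 26 of 32 tested genes were higher and 3 lower after LPS, Psma8 included (30.3% and 33.8% of all genes). Their median log2 fold change was 0.87.

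**Figure D2:**
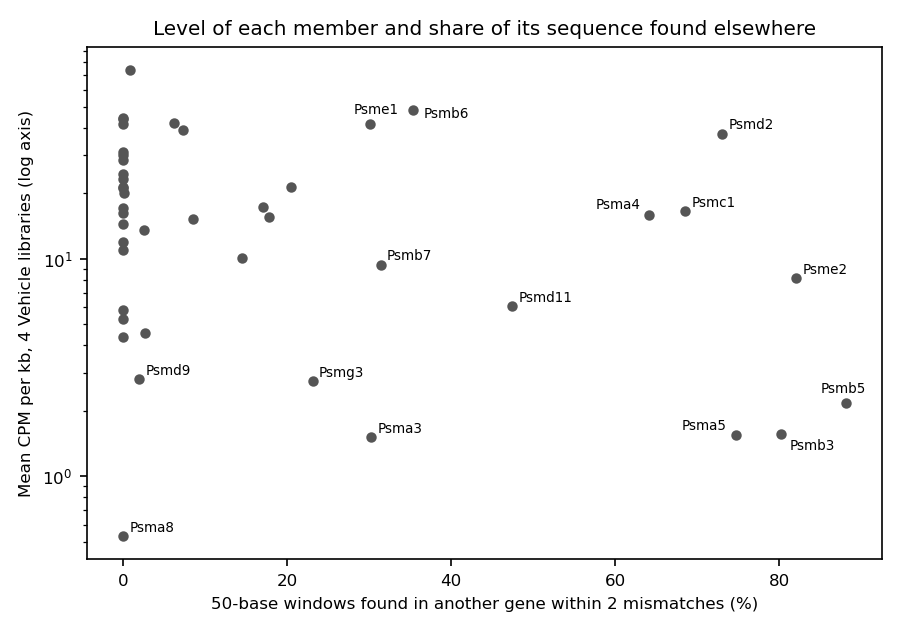
Mean level of each tested gene in the 4 Vehicle libraries (CPM per kilobase of exon, log axis) against the share of its 50-base windows found in another gene. Psmb5, Psmb3 and Psma5 combine shares over 70% with levels near 2 CPM per kilobase, while Psma8 is at the bottom with no shared window.

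Among the 8 alpha subunits, which form the gate and outer rings of the core, 6 were higher (30.3% of all genes). Psma8, which passed the filter only through Vehicle, was lower (33.8% of all genes), and Psma3 did not pass. The median log2 fold change of the 8 was 0.95 against -0.11 over all genes. Psma6 (chr12:55384222-55418454, plus strand, GRCm38) rose most of the ring. It stood at 90.2, 90.2, 93.4 and 89.8 CPM in Vehicle replicates 1 to 4 and at 358, 331, 392 and 348 CPM in LPS replicates 1 to 4. The groups were widely separated and the Vehicle libraries nearly equal (log2 fold change 1.97 ± 0.10 SE, edgeR adjusted p = 3.94e-07). Psma6 stayed higher with library totals alone, at a log2 fold change of 1.29, and under 1% of its windows matched elsewhere. Psma5 (log2 fold change 1.24, edgeR adjusted p = 0.00825), Psma7 (log2 fold change 1.06, edgeR adjusted p = 2.22e-05) and Psma2 (log2 fold change 1.00, edgeR adjusted p = 7.31e-05) followed. Psma4 at 0.91 and Psma1 at 0.81 also passed. Psma3, also an alpha-ring subunit, went from 5.90 ± 0.687 to 6.73 ± 1.20 CPM with overlapping groups (log2 fold change 0.19, edgeR adjusted p = 0.371).

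The beta ring holds the active sites, and 6 of its 7 tested subunits were higher (30.3% of all genes), with a median log2 fold change of 0.77. Psmb7 (chr2:38588036-38644087, minus strand), the trypsin-like subunit, was at 33.1, 30.1, 35.7 and 29.97 CPM in Vehicle replicates 1 to 4 and 67.8, 79.02, 89.03 and 74.8 CPM in LPS replicates 1 to 4. Every LPS library exceeded every Vehicle library (log2 fold change 1.27 ± 0.11 SE, edgeR adjusted p = 9.35e-06). Of its exonic length, 11.8% lies opposite Nek6 on the other strand, and whether counting used strand is not stated. Psmb6 (chr11:70525367-70527858, plus strand), the caspase-like subunit, was at 91.6, 88.8, 96.6 and 84.5 CPM in Vehicle and 155, 149, 155 and 168 CPM in LPS replicates 1 to 4. Its groups did not overlap either (log2 fold change 0.79 ± 0.09 SE, edgeR adjusted p = 4.82e-05). With library totals alone Psmb6 did not pass (log2 fold change 0.12, edgeR adjusted p = 0.262). Psmb5 (chr14:54614119-54618022, minus strand), the chymotrypsin-like subunit, gave only 2.49, 1.73, 1.93 and 1.67 CPM in Vehicle and 4.49, 3.49, 1.26 and 3.68 CPM in LPS replicates 1 to 4. LPS replicate 3 lay below all Vehicle libraries and the other 3 above them (log2 fold change 0.72 ± 0.36 SE, edgeR adjusted p = 0.108). Without LPS replicate 3, Psmb5 passed the test (log2 fold change 0.99, edgeR adjusted p = 0.00377). With library totals alone and all libraries, its log2 fold change was 0.08 (edgeR adjusted p = 0.866). 

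The structural beta subunits spread over a wider range. Psmb4, a structural subunit, rose most of them (log2 fold change 0.99, edgeR adjusted p = 2.34e-05), and Psmb3 (0.77) and Psmb2 (0.74) rose less. Psmb1 had the smallest change of the ring. It was at 81.1, 70.7, 90.3 and 77.3 CPM in Vehicle and 99.9, 96.4, 105 and 101 CPM in LPS replicates 1 to 4. Vehicle replicate 3 came within a few CPM of the lowest LPS library (log2 fold change 0.33, edgeR adjusted p = 0.0139), and with library totals alone Psmb1 was lower after LPS, at -0.34 on the log2 scale. 

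The 6 ATPases of the 19S base, the motor that unfolds substrates and feeds them into the core, were all higher (30.3% of all genes). Their median log2 fold change was 1.13, with a range of 0.44 to 1.27. Psmc2 was at 68.1, 74.5, 75.99 and 71.7 CPM in Vehicle and 151, 178, 189 and 182 CPM in LPS replicates 1 to 4 (log2 fold change 1.27 ± 0.10 SE, edgeR adjusted p = 5.44e-06). Psmc6 (1.18), Psmc5 (1.17), Psmc1 (1.10) and Psmc4 (0.92) lay close behind on the log2 scale. Psmc3 stood apart at the low end, with 96.3, 103, 110.3 and 97.2 CPM in Vehicle and 122, 144, 128 and 157 CPM in LPS replicates 1 to 4. Its groups did not overlap (log2 fold change 0.44, edgeR adjusted p = 0.00552), but its log2 fold change was -0.23 with library totals alone.

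The 3 other base subunits rose as well (30.3% of all genes were higher), with a median log2 fold change of 0.80. Psmd4, a ubiquitin receptor, was at 56.9, 63.1, 62.5 and 55.8 CPM in Vehicle and 110.5, 118, 98.7 and 122 CPM in LPS replicates 1 to 4 (log2 fold change 0.91, edgeR adjusted p = 3.59e-05). Psmd1, a scaffold of the base, was at 113, 109, 108 and 113 CPM in Vehicle and 148, 153, 186 and 161 CPM in LPS replicates 1 to 4 (log2 fold change 0.54, edgeR adjusted p = 0.000979). Neither gene's groups overlapped, and Psmd1 turned to -0.14 with library totals alone. Psmd2, the other large scaffold, lay between them at 0.80.

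All 8 lid subunits were higher after LPS (30.3% of all genes), with a median log2 fold change of 0.92. The top of the lid was Psmd11, a scaffold subunit, at 39.9, 39.2, 37.96 and 38.3 CPM in Vehicle and 104, 115, 133 and 112 CPM in LPS replicates 1 to 4. Its LPS libraries varied far more than its Vehicle libraries and all lay above them (log2 fold change 1.58 ± 0.10 SE, edgeR adjusted p = 1.19e-06). Psmd14, the enzyme that cuts ubiquitin chains off substrates, came next (log2 fold change 1.37, edgeR adjusted p = 2.93e-06), and its inactive partner Psmd7 followed at 1.04. The scaffold subunits Psmd13 (0.93), Psmd3 (0.90), Psmd8 (0.88) and Psmd12 (0.86) gave closely spaced changes. Psmd3 was uneven, since LPS replicate 3 at 64.2 CPM lay far under the 107 to 123 CPM of the other LPS libraries. Psmd6 moved least in the lid, from 44.8, 49.4, 52.02 and 45.8 CPM in Vehicle to 57.3, 58.2, 61.4 and 57.7 CPM in LPS replicates 1 to 4 (log2 fold change 0.29, edgeR adjusted p = 0.0143). That separation was narrow, and its log2 fold change was -0.39 with library totals alone.

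Dedicated chaperones assemble the 19S base and the 20S core. Of the 3 chaperones of the 19S base, Psmd10 (gankyrin) and Psmd5 were higher (30.3% of all genes) and Psmd9 did not pass. Their median log2 fold change was 0.51. Psmd10 was at 38.9, 26.7, 33.1 and 27.6 CPM in Vehicle and 76.3, 65.5, 77.1 and 64.8 CPM in LPS replicates 1 to 4, without overlap (log2 fold change 1.17, edgeR adjusted p = 5.87e-05). Psmd9 was at 20.3, 18.6, 22.6 and 19.6 CPM in Vehicle and 22.9, 23.6, 18.9 and 25.8 CPM in LPS replicates 1 to 4. Only LPS replicate 3 fell among the Vehicle libraries (log2 fold change 0.17, edgeR adjusted p = 0.249), and without it Psmd9 passed (log2 fold change 0.25, edgeR adjusted p = 0.0438). With library totals alone Psmd9 was instead lower after LPS (log2 fold change -0.50, edgeR adjusted p = 0.0122), so its direction depended on the scaling. Of the exonic length of Psmd9, 25.5% lies opposite Gm26745.

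The 4 assembly chaperones of the 20S core, which pair up to order the alpha ring, were the only role with no member higher after LPS. Their median log2 fold change was -0.45, and 30.3% of all genes were higher and 33.8% lower. Psmg2 was at 9.91, 10.3, 10.4 and 10.05 CPM in Vehicle and 6.22, 5.88, 3.40 and 7.30 CPM in LPS replicates 1 to 4, lower in every LPS library (log2 fold change -0.84 ± 0.21 SE, edgeR adjusted p = 0.00650). Its partner Psmg1 was at 6.62, 7.51, 6.85 and 7.53 CPM in Vehicle and 5.63, 4.52, 3.82 and 5.46 CPM in LPS replicates 1 to 4, also without overlap (log2 fold change -0.55 ± 0.17 SE, edgeR adjusted p = 0.0156). The Psmg1 call was lost without Vehicle replicate 2, 3 or 4, at edgeR adjusted p-values of 0.0651, 0.0527 and 0.0658. Psmg3 was at 7.60, 7.78, 8.02 and 8.41 CPM in Vehicle and 6.88, 10.3, 7.14 and 9.68 CPM in LPS replicates 1 to 4, and its groups overlapped (log2 fold change 0.10, edgeR adjusted p = 0.630). Psmg4, the partner of Psmg3, was at 6.06, 6.05, 8.15 and 6.39 CPM in Vehicle and 7.78, 5.06, 2.85 and 5.41 CPM in LPS replicates 1 to 4. LPS replicate 1 was above 3 of the Vehicle libraries and LPS replicate 3 was the lowest of all (log2 fold change -0.34, edgeR adjusted p = 0.294). These 4 genes were scarce, at 2.75 to 12.01 CPM per kilobase in Vehicle libraries. A difference between the chaperones and the other roles was not tested.

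The activators are caps that open the core without the 19S particle. All 4 were higher after LPS (30.3% of all genes), with a median log2 fold change of 1.15. Psme1 (chr14:55578123-55581529, plus strand), the alpha subunit of PA28, was at 77.9, 96.5, 113 and 80.9 CPM in Vehicle and 235, 213, 219.7 and 235 CPM in LPS replicates 1 to 4. The LPS values were about level while the Vehicle values spread (log2 fold change 1.29 ± 0.13 SE, edgeR adjusted p = 2.56e-05). Psme2 (chr14:55587441-55591113, minus strand), its beta subunit, was at 13.2, 13.5, 18.7 and 12.04 CPM in Vehicle and 59.8, 54.7, 74.9 and 49.2 CPM in LPS replicates 1 to 4. This was the highest fold change of the 44 genes (log2 fold change 2.05 ± 0.18 SE, edgeR adjusted p = 8.44e-06). The retrocopy Psme2b held most of the reads of the pair, moving from 69.4 ± 12.96 to 233 ± 20.4 CPM (SD, n = 4; log2 fold change 1.75, edgeR adjusted p = 7.20e-06). Psme2 made up 17.1% of their sum in Vehicle and 20.4% in LPS libraries, and the sum rose by 1.80 on the log2 scale, from 83.7 ± 15.6 to 293 ± 29.2 CPM (SD, n = 4).

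The remaining caps moved less. Psme4 (PA200), a large nuclear activator, was at 133, 139, 144 and 128 CPM in Vehicle and 211, 257, 365 and 268 CPM in LPS replicates 1 to 4, without overlap (log2 fold change 1.02, edgeR adjusted p = 0.000380). Psme3 (PA28 gamma), a nuclear activator that does not pair with PA28 alpha and beta, was at 67.1, 77.7, 68.3 and 76.8 CPM in Vehicle and 87.6, 87.8, 101 and 93.9 CPM in LPS replicates 1 to 4. Its separation was small (log2 fold change 0.35, edgeR adjusted p = 0.00895), and with library totals alone it was lower after LPS, at -0.33 on the log2 scale. Psmf1 (PI31), known as an inhibitor of the core, was at 28.9, 28.5, 27.8 and 27.7 CPM in Vehicle and 38.7, 40.8, 42.3 and 43.2 CPM in LPS replicates 1 to 4. It was evenly higher in all LPS libraries (log2 fold change 0.55, edgeR adjusted p = 0.000285), with -0.13 by library totals alone.

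**Figure D3:**
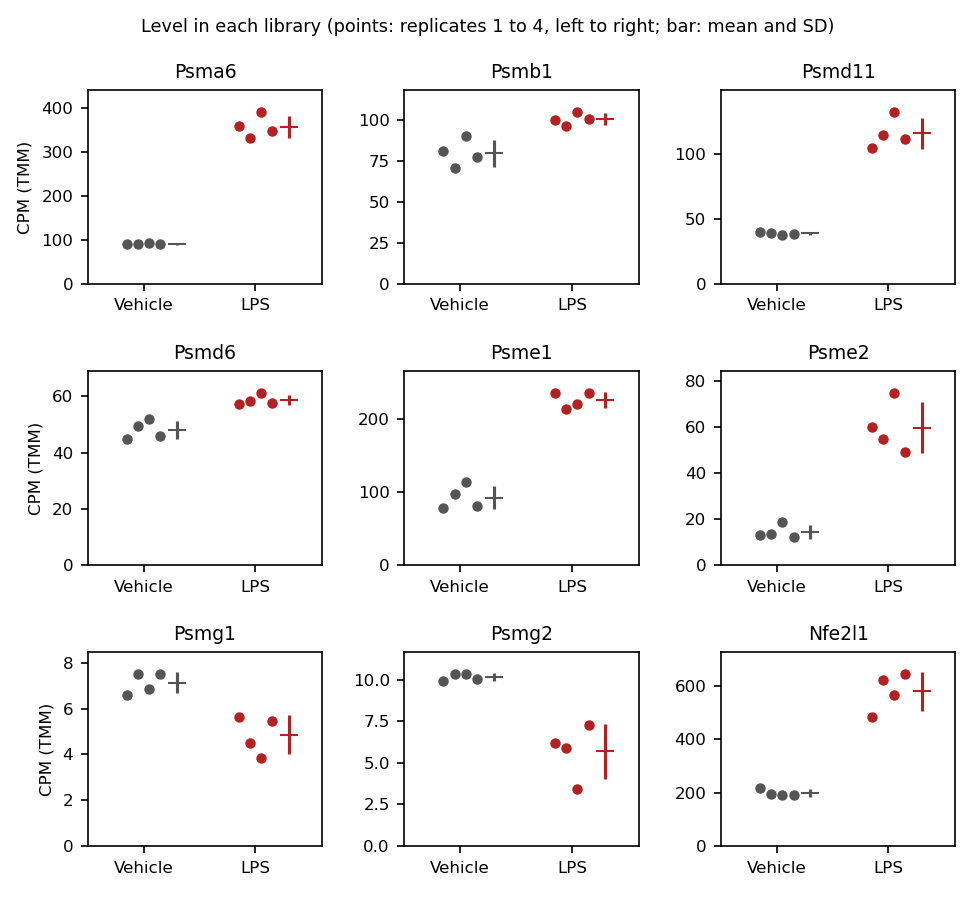
CPM in each library for 8 proteasome genes and Nfe2l1; points are replicates 1 to 4 from left to right and the bar is the mean with SD (n = 4). Psma6, Psmd11, Psme1 and Psme2 show a wide gap between groups, Psmb1 and Psmd6 a narrow gap, and Psmg1 and Psmg2 the opposite order.

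Whether LPS shifted the balance between inducible and constitutive active sites was read from the log2 ratio of counts per kilobase within a library, which no scaling between libraries can alter. Psmb8, which takes the place of Psmb5, was itself higher after LPS, at 95.9, 133, 169 and 99.9 CPM in Vehicle and 532, 493, 448 and 485 CPM in LPS replicates 1 to 4 (log2 fold change 1.97, edgeR adjusted p = 1.56e-05). The Psmb8 to Psmb5 log2 ratio was 3.36, 4.35, 4.54 and 3.99 in Vehicle and 4.98, 5.23, 6.56 and 5.13 in LPS replicates 1 to 4. All LPS values lay above the Vehicle values, with means of 4.06 ± 0.52 and 5.48 ± 0.73 (SD, n = 4) and a difference of 1.42 (two-sided exact permutation p = 0.0286, the smallest that 70 divisions allow, adjusted p = 0.0429 over 3 ratios). Since most Psmb5 windows match a copy, the part of lost reads in this ratio was not tested. Of the exonic length of Psmb8, 14.7% lies opposite Gm20496 on the other strand, and its part was not tested either.

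Psmb9, the counterpart of Psmb6, was at 31.9, 42.8, 63.3 and 33.2 CPM in Vehicle and 118, 141, 145 and 148 CPM in LPS replicates 1 to 4 (log2 fold change 1.69, edgeR adjusted p = 9.02e-05). The Psmb9 to Psmb6 log2 ratio was -2.49, -2.02, -1.58 and -2.31 in Vehicle and -1.36, -1.04, -1.06 and -1.15 in LPS replicates 1 to 4. It was higher in all LPS libraries but stayed below 0 in each, with means of -2.10 ± 0.40 and -1.15 ± 0.14 (SD, n = 4) and a difference of 0.95 (exact permutation p = 0.0286, adjusted p = 0.0429). Within the 4 replicate pairs, the exact sign-flip test of either ratio cannot go below p = 0.125, which both reached. Of the exonic length of Psmb9, 5.79% lies opposite Tap1 on the other strand, and its part in the ratio was not tested.

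Psmb10, the counterpart of Psmb7, was at 72.2, 77.9, 115 and 54.3 CPM in Vehicle and 208, 192, 123 and 209 CPM in LPS replicates 1 to 4 (log2 fold change 1.20, edgeR adjusted p = 0.00174). The Psmb10 to Psmb7 log2 ratio was 2.13, 2.38, 2.68 and 1.86 in Vehicle and 2.62, 2.29, 1.47 and 2.49 in LPS replicates 1 to 4. The groups overlapped and the difference was -0.05 (exact permutation p = 0.886, adjusted p = 0.886), turning to 0.20 without LPS replicate 3 and 0.09 without Vehicle replicate 3. Psmb7 and Psmb10 were each higher after LPS, but Psmb10 did not pass with library totals alone (log2 fold change 0.55, edgeR adjusted p = 0.0714). The sign of the ratio's difference depended on the replicate 3 libraries.

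**Figure D4:**
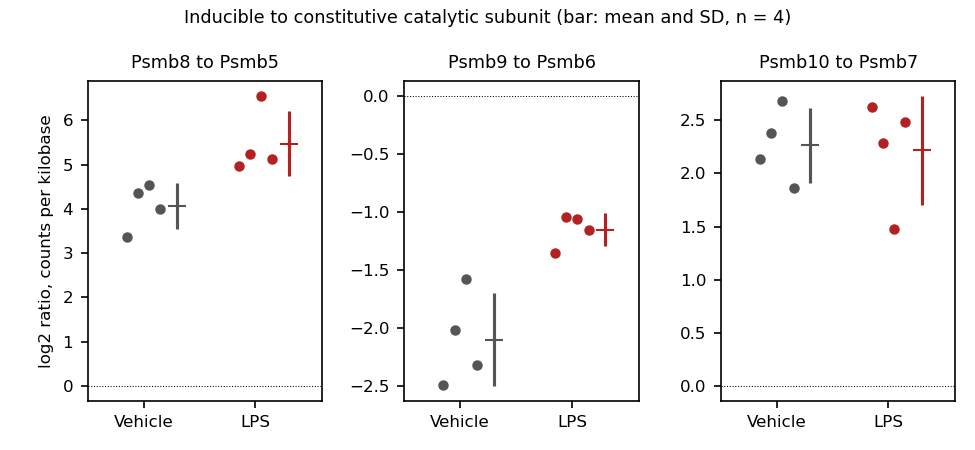
Log2 ratio of counts per kilobase of each inducible subunit to the constitutive subunit it replaces, by library, with mean and SD (n = 4). Psmb8 to Psmb5 and Psmb9 to Psmb6 are higher in all LPS libraries, and Psmb10 to Psmb7 overlaps.

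Levels between genes were compared per kilobase of exon. The length is the union of all annotated exons of a gene, and the order of genes and the SDs below depend on that choice. It was 1234 bases for Psma6 and 1872 for Psmb6, whose longest coding transcripts have 1042 and 798 bases. Before division by length their mean Vehicle levels were 90.9 and 90.4 CPM. Levels per transcript length were not computed. Among the 14 standard core genes, Psma6 had the highest level per kilobase of exon in all 8 libraries. It ranged from 72.8 to 75.7 CPM per kilobase in Vehicle and 268 to 317 CPM per kilobase in LPS libraries. The 14 genes, whose proteins occur in equal number, differed from each other with an SD of 1.96 to 2.10 on the log2 scale in Vehicle and 2.13 to 2.50 in LPS libraries. Among the 7 core genes with under 30% shared windows the SD was 0.961 to 0.992 in Vehicle and 1.29 to 1.34 in LPS libraries. The median of the tested members was 16.04 CPM per kilobase in Vehicle and 32.1 in LPS libraries.

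Replicates of the members were tight. In the 34 members that averaged 5 or more on the log2 CPM scale, the median coefficient of variation was 5.99% in Vehicle and 9.04% in LPS libraries, against 8.36% and 15.1% over 4847 genes of that range. Vehicle replicate 3 was the highest of its group for 29 of 44 members. Among LPS libraries, replicates 3 and 4 were the highest for 20 and 16 members, replicate 1 was the lowest for 19, and replicates 2 and 3 were the lowest for 11 each. Within replicate numbers, the median LPS to Vehicle log2 ratio of the members was 0.86, 0.86, 0.78 and 1.00 for replicates 1 to 4. In the same order, 40, 40, 36 and 40 of the 44 were higher. The same tally over all genes was not computed. Leaving out LPS replicate 3 gave 38 members higher and 3 lower, and leaving out Vehicle replicate 3 gave 36 and 2. The median gene moved by -0.14 and -0.06 in these fits, and their shares of all genes called were not computed.

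Genes that work with the proteasome under other names were read next. Of the 11 of them in the table, 10 were tested, 7 were higher, 1 was lower and 2 did not pass, with a median log2 fold change of 0.61 against -0.11 over all genes (30.3% higher and 33.8% lower). Zfand5, an activator of the 26S proteasome, was at 83.4, 80.4, 77.01 and 76.2 CPM in Vehicle and 334, 358, 414 and 371 CPM in LPS replicates 1 to 4, without overlap (log2 fold change 2.22 ± 0.11 SE, edgeR adjusted p = 3.21e-07). Pomp, which completes the assembly of the beta rings, was at 85.1, 78.2, 94.8 and 77.2 CPM in Vehicle and 159, 148, 167 and 154 CPM in LPS replicates 1 to 4 (log2 fold change 0.90, edgeR adjusted p = 4.21e-05). Unlike the assembly chaperones Psmg1 and Psmg2, Pomp was higher in every LPS library. Sem1, a small lid subunit, was at 101, 96.9, 121 and 88.2 CPM in Vehicle and 172, 145, 109 and 156 CPM in LPS replicates 1 to 4. LPS replicate 3 fell among the Vehicle libraries (log2 fold change 0.52, edgeR adjusted p = 0.0152), and the call was lost without Vehicle replicate 2 or 4 (edgeR adjusted p = 0.05004 and 0.055). Usp14, a deubiquitinase of the 19S base, was at 65.6, 73.9, 68.8 and 78.8 CPM in Vehicle and 54.2, 56.6, 61.00 and 53.4 CPM in LPS replicates 1 to 4, lower in all LPS libraries (log2 fold change -0.35, edgeR adjusted p = 0.00863). Of its windows 45.5% were shared, with Thoc1 only, and 25.99% of its exonic length lies opposite that same gene. The deubiquitinase Uchl5 (-0.08) and the ligase Ube3c (-0.07) did not pass. Adrm1, the ubiquitin receptor, had 2 to 6 counts in each library and was not tested, with 88.4% of its windows found elsewhere. Its copy Gm9774 went from 3.95 ± 0.463 to 7.23 ± 2.26 CPM (SD, n = 4).

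Of 4 genes of ubiquitin and its activating enzymes, 3 were tested and 2 were higher (30.3% of all genes), with a median log2 fold change of 1.29. Ubb, which encodes polyubiquitin, was at 72.4, 70.6, 88.9 and 71.5 CPM in Vehicle and 211, 214, 259 and 239.6 CPM in LPS replicates 1 to 4 (log2 fold change 1.61 ± 0.12 SE, edgeR adjusted p = 3.44e-06). It was higher in all LPS libraries, and 71.1% of its windows were shared. Uba1, the main ubiquitin-activating enzyme, was also higher (log2 fold change 1.29, edgeR adjusted p = 2.48e-05). The other activating enzyme Uba6 was at 53.5, 66.5, 53.98 and 70.8 CPM in Vehicle and 61.9, 59.96, 78.03 and 57.2 CPM in LPS replicates 1 to 4, with overlapping groups (log2 fold change 0.07, edgeR adjusted p = 0.663). Rps27a, a fusion of ubiquitin with a ribosomal protein, had 0 to 10 counts in each library, with 73.3% of windows shared, and was not tested.

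Shuttle factors and the p97 unfoldase deliver substrates to the proteasome. Of 11 genes, 7 were higher, 3 lower and 1 did not pass (30.3% of all genes were higher and 33.8% lower), with a median log2 fold change of 0.45. Nploc4, a ubiquitin-binding cofactor of p97, was at 97.7, 93.8, 89.8 and 91.4 CPM in Vehicle and 190.2, 236, 254 and 246 CPM in LPS replicates 1 to 4 (log2 fold change 1.31, edgeR adjusted p = 8.51e-06). The shuttle factor Ubqln2 was at 60.6, 59.1, 55.6 and 64.9 CPM in Vehicle and 22.7, 23.9, 21.3 and 22.02 CPM in LPS replicates 1 to 4, lower in all LPS libraries (log2 fold change -1.42 ± 0.09 SE, edgeR adjusted p = 1.33e-06). Ubqln4 (-0.92), another ubiquilin, and Ddi2 (-1.37), the protease that activates Nfe2l1, were the other 2 lower genes, whereas Ubqln1 was higher (0.50). Vcp, which encodes p97, changed by 0.45, with 71.6% of its windows shared.

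Nfe2l1 is the transcription factor that raises proteasome genes when proteasome activity falls, and small Maf proteins are its partners on DNA. Of 8 genes listed as its axis, 7 were higher and 1 lower (30.3% and 33.8% of all genes), with a median log2 fold change of 1.11. Ddi2, which was lower, was counted with the shuttle factors and not in this list. Nfe2l1 was at 219, 194, 189 and 191 CPM in Vehicle and 482, 622, 567 and 646 CPM in LPS replicates 1 to 4, without overlap (log2 fold change 1.55 ± 0.13 SE, edgeR adjusted p = 6.28e-06). Maff was at 2.91, 2.35, 2.28 and 2.41 CPM in Vehicle and 40.3, 32.2, 42.9 and 34.2 CPM in LPS replicates 1 to 4, the highest change in the lists (log2 fold change 3.91 ± 0.15 SE, edgeR adjusted p = 1.05e-07). Mafk (1.32) and Mafg (0.89), the other small Mafs, rose less. Nfe2l2, the related factor of the oxidative stress response, was at 372, 329.9, 407 and 319 CPM in Vehicle and 205, 226, 259.7 and 218 CPM in LPS replicates 1 to 4, lower in all LPS libraries (log2 fold change -0.65 ± 0.12 SE, edgeR adjusted p = 0.00123). Across the 35 tested partner genes, the 3 inducible subunits included, 26 were higher and 5 lower, against 30.3% and 33.8% of all genes. With library totals alone the counts were 12 and 9, against 14.4% and 61.1% of all genes.

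**Figure D5:**
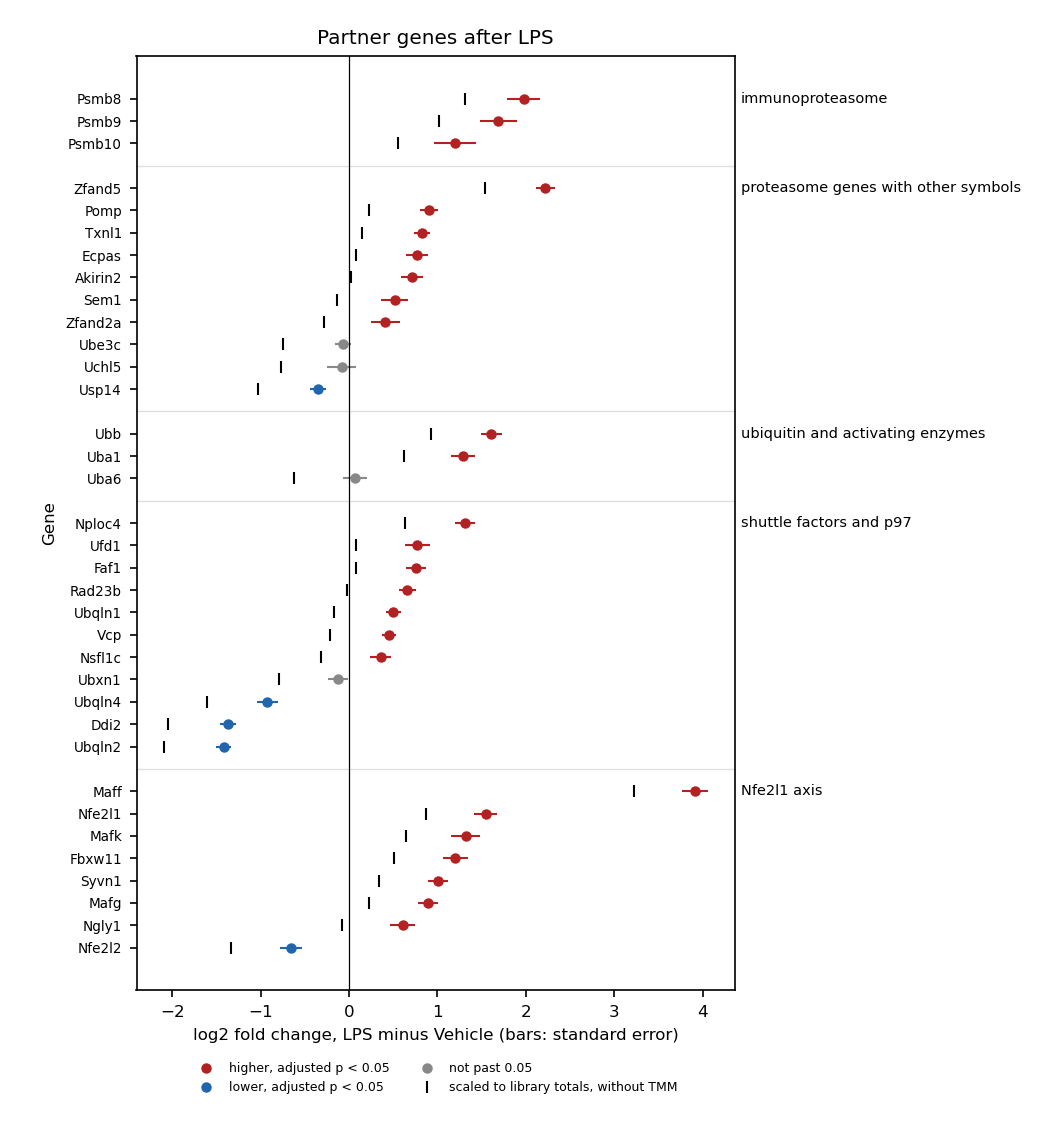
Log2 fold change (LPS minus Vehicle, x axis) with standard error of 35 tested partner genes by list; ticks mark the value with library totals alone. Maff lies farthest right at 3.91, while Ubqln2, Ddi2 and Ubqln4 lie on the left of 0.

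Since Nfe2l1 and Nfe2l2 bind antioxidant response elements, the promoters were searched for the core TGACNNNGC on both strands, in the 250 bases before the RefSeq start of the gene (GRCm38.p6). Promoters were matched by symbol for 37 of the 45 genes. The core was in 5 of them (13.5%), against 11.5% of 27025 promoters in the table. The matches are shown 5′ to 3′ on the strand of the gene, with the core or its reverse complement in capitals.
Psmb5, chr14:54618009-54618067, minus strand: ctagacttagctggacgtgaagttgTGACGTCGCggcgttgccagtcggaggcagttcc
Psmb6, chr11:70525323-70525356, plus strand: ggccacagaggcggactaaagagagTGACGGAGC
Psmc6, chr14:45329574-45329630, plus strand: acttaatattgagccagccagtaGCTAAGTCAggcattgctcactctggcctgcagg
Psmd12, chr11:107479278-107479314, plus strand: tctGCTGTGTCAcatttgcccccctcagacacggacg
Psmd9, chr5:123228134-123228189, plus strand: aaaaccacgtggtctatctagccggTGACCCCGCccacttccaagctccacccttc

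The match began at position -47 from the start in Psmb5, -31 in Psmd9 and -9 in Psmb6, and lay farther up, at -227 in Psmc6 and -247 in Psmd12, on the reverse strand. The log2 fold changes of the 5 genes in this order were 0.72, 0.17, 0.79, 1.18 and 0.86, of which Psmb5 and Psmd9 did not pass the test. The part of the motif in the response was not tested. CCAAT was in 13 of the 37 promoters (35.1%, against 37.5% of all promoters), and the core of the interferon-stimulated response element (GAAA, any 2 bases, GAAA) was in 3, those of Psmb3, Psmd4 and Psmd9 (8.11%, against 3.46%). None of the 3 motifs contains another.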

How the data were processed

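The deposited table holds raw counts per Ensembl gene. The authors filtered, aligned and counted the reads with the HTSeqGenie package, using GSNAP on GRCm38 and keeping uniquely aligned reads. The annotation release and the use of strand are not given in the sources used here, and the labels and the methods name different library kits and sequencers. No row lacked a gene (0 rows) and 52489 of 52636 identifiers had a symbol in GENCODE vM21.

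Counts were tested with edgeR 4.0.16 (R 4.3.3) by the quasi-likelihood test, two-sided, on 4 LPS against 4 Vehicle libraries, with TMM scaling, a filter of 10 counts (15 in total) and Benjamini-Hochberg adjustment over 13847 genes at 0.05. CPM divide counts by the TMM-scaled library size. SEs are the log2 fold change over the root of its F statistic. Ratios of subunits were tested over all 70 divisions of the libraries with Python 3.11.15. Windows of 50 bases were aligned with bwa 0.7.19 to the annotated transcripts, since no genome was used. Depth was 20071921 to 30604447 counts per library, and a floor of 3 counts covers counting error only. DESeq2 1.42.0 and other filters, scalings and left-out libraries were tried. The scripts were tested on simulated counts.

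Replicates with the same number deviated together (r = 0.363, 0.179, 0.177 and 0.110 for replicates 1 to 4 over 8382 genes). Vehicle replicate 2 with LPS replicate 4 (r = 0.141) and Vehicle replicate 4 with LPS replicate 2 (r = 0.122) did so too. Since r was above 0.1 in every same-numbered pair, the numbers were taken as pairs for an added replicate term. This comes from the data, since the labels do not say what a number marks. The members and lists were chosen with earlier results of these data known. Some genes of the partner lists are not reported here, and the counts leave them out. Values in every library are given for the catalytic subunits, the highest and lowest change of each role and partner list, the activators, the inhibitor, the 20S assembly chaperones and Nfe2l1, Ubb, Pomp, Adrm1 and Sem1. Members with 30% or more shared windows, the interferon-stimulated motif and the genes called copies were taken up after seeing the data.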

Additional observations from a re-analysis of the deposited data

Results flagged for a closer look

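In 158 groups of 4 libraries (members and partners, each in Vehicle and LPS), 7 had a highest or lowest library whose gap to the nearest other exceeded Dixon's critical value for 4 values, and chance flags about 1 in 20 groups. Of the proteasome genes, Psma1 was set apart by Vehicle replicate 3 at 95.9 CPM, with the next library at 90.8 CPM. Vehicle replicate 3 also stood high for Psma6 at 93.4 CPM (next 90.2) and for Psmg4 at 8.15 CPM (next 6.39). In Psma2, LPS replicate 3 was high at 90.6 CPM (next 68.9), and in Psmc4, Vehicle replicate 1 was low at 62.3 CPM (next 65.4). Of the partner genes, Txnl1 had LPS replicate 3 high at 122 CPM (next 106) and Ubb had Vehicle replicate 3 high at 88.9 CPM (next 72.4). A replicate 3 library was the outlying one in 6 of the 7.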

How the results depend on the processing

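DESeq2, DESeq2 size factors in edgeR, a replicate block and the stricter filter each gave 36 members higher, with 3, 3, 3 and 2 lower. Upper quartile scaling gave 33 and 3, no filter 34 and 3, and a threshold of 0.01 gave 34 and 2. Shares of all genes called were computed only for the main fit and for library totals. The other counts here, also those with a library left out, therefore have no share beside them. The median gene moved by -0.27 with upper quartile scaling, -0.30 without the filter, -0.12 with DESeq2 and -0.04 with the stricter filter. The replicate block changed no call of a member and ended that of Zfand2a (log2 fold change 0.38, edgeR adjusted p = 0.0608). The scaling to library totals moved most, with 18 members higher and 9 lower, 12 and 9 partners, a members' median of 0.21, and role medians of 0.27 (alpha ring), 0.11 (beta ring), 0.45 (ATPases), 0.12 (base non-ATPases), 0.25 (lid), -0.17 (base chaperones, reversed), 0.47 (activators), -0.13 (inhibitor, reversed) and -1.11 (20S chaperones). Single genes reversed under it were Psmb1 (-0.34), Psmc3 (-0.23), Psmd1 (-0.14), Psmd5 (-0.17), Psmd6 (-0.39), Psmd9 (-0.50), Psme3 (-0.33), Psmf1 (-0.13), Psmg3 (-0.58), Ngly1 (-0.082), Sem1 (-0.14), Zfand2a (-0.28), Nsfl1c (-0.31), Rad23b (-0.017), Ubqln1 (-0.17), Vcp (-0.22) and Uba6 (-0.62). Reversed here means opposite signs with a call under either scaling. Of the reversed genes, only Psmb1, Psmd6, Psmd9, Psme3, Psmg3 and Uba6 passed as lower with library totals alone. Psma3, which passed under neither scaling, went from 0.19 to -0.48. With library totals alone, Psma1, Psma5, Psmb2, Psmb3, Psmb6, Psmc4, Psmd2, Psmd3, Psmd4, Psmd8 and Psmd12 lost their calls without reversal. So did the partners Mafg, Psmb10, Akirin2, Ecpas, Txnl1, Faf1 and Ufd1. By construction this scaling shifts all genes by a near-constant amount, -0.11 to -0.79 for the median gene. Upper quartile scaling gave medians of 0.74 (members), 0.79 (alpha ring), 0.98 (ATPases), 0.64 (base non-ATPases), 0.77 (lid), 1.00 (activators) and 0.39 (inhibitor). Leaving out each library in turn gave medians of 0.87 to 1.07 (alpha ring), 0.92 to 1.03 (lid) and 1.08 to 1.28 (activators), 36 to 38 members higher and 2 to 3 lower. The differences of the log2 ratios were then 1.05 to 1.58 for Psmb8 to Psmb5 and 0.82 to 1.12 for Psmb9 to Psmb6, each at adjusted exact p = 0.0857 without an LPS library, and -0.18 to 0.20 for Psmb10 to Psmb7, reversed at 0.09 without Vehicle replicate 3 and at 0.20 without LPS replicate 3. With the replicate block (sign flips of 4 pairs) Psmb8 to Psmb5 (1.42) and Psmb9 to Psmb6 (0.95) had exact p = 0.125, the smallest possible. Division by length shifts a ratio equally in all libraries, so by construction it left the 3 differences as they were. At this depth, Psmb11, Adrm1 and Rps27a gave too few counts to test.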
